A study of Homo sapiens with 4 samples.

Results

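The intervals described here are the CHAF1A CUT&Tag peaks that lie whole within the last megabase of a human autosome. CHAF1A was profiled in RBE cells, an established line of human intrahepatic cholangiocarcinoma, harvested 48 hours after transfection with an siRNA against CHAF1A (si-CHAF1A, 2 samples) or with a control siRNA (si-Ctrl, 2 samples). The files hold 1 peak list per group, and the labels do not say how the 2 samples of a group enter it. A peak was taken when its whole interval lay within 1 Mb of the GRCh38 end of a long arm, or of the first base of a short arm, with the short arms of chromosomes 13, 14, 15, 21 and 22 left out. That gave 3452 of 94415 autosomal peaks in the si-CHAF1A list and 2650 of 74282 in the si-Ctrl list, over 39 arms and 39 Mb of sequence. No interval crossed the 1 Mb line. The siRNA is transient and both groups are 1 cell line, and the lists carry no RNA or protein level that would show how far CHAF1A was depleted.

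CHAF1A is the large subunit of CAF-1, a histone chaperone that works with the replication machinery to load newly made H3 and H4 onto daughter DNA. Subtelomeres are the stretches next to the telomere repeats. Many are rich in genes and in GC, and their outermost parts hold blocks duplicated among several chromosomes, such as the WASH, DDX11L and DUX4 families. The reference assembly starts most chromosome ends with a run of unknown bases, where no read can be placed. Reads from near-identical copies can be shared among them or placed on the wrong one, so values at duplicated blocks are uncertain.

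Promoters that hold the summit of a named subtelomeric peak are printed to show the sequence under a shared peak (UPF3A), a peak of the si-CHAF1A list only (MCRIP2) and peaks of the si-Ctrl list only (UCKL1 and TCEA2). They come from RefSeq, build GRCh38.p14, and run 5′ to 3′ along the gene. Capitals mark ACTACA or its reverse complement TGTAGT, a motif added after the sequences had been seen.
UPF3A, chr13:114281661-114281960, plus strand: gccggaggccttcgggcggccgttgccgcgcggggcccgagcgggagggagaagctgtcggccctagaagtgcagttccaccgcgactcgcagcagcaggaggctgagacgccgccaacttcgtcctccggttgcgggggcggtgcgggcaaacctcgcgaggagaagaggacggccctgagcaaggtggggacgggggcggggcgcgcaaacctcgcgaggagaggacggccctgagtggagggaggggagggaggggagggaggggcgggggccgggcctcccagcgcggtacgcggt
MCRIP2, chr16:641578-641877, plus strand: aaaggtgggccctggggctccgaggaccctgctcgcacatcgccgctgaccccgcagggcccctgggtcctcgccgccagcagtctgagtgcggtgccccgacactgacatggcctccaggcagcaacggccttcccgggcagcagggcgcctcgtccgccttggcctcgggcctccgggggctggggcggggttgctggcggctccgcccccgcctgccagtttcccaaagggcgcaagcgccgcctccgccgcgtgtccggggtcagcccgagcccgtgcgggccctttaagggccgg
UCKL1, chr20:63956367-63956666, minus strand: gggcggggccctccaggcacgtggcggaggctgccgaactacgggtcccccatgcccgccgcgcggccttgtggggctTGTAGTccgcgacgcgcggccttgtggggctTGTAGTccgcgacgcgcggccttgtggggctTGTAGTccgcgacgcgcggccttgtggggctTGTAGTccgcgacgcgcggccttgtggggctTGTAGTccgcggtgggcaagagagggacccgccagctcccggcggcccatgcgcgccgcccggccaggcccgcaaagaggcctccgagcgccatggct
TCEA2, chr20:64062948-64063247, plus strand: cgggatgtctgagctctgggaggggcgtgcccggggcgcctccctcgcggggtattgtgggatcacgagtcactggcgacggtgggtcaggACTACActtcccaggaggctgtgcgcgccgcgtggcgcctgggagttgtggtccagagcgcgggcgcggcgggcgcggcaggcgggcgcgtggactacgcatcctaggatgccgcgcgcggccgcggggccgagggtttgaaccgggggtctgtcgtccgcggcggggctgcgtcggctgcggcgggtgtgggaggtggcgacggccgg
The UCKL1 promoter carried 5 copies of TGTAGT spaced 31 bases apart, inside a tandem repeat, and the TCEA2 promoter held ACTACA once. The motif did not follow the class of the peak. The ZNF418 promoter, at a peak of the si-CHAF1A list only, also held ACTACA. At other peaks of the si-Ctrl list only, the promoters of PARD6G, GAK, TMEM175, ATP5ME, MYL5, RPUSD1, CHTF18 and HRAS did not hold it. On either strand this motif was found in 8.29% of the 1038 promoters of this length in the last megabase, counting each annotated start, and in 8.48% of all 33725 autosomal promoters. The letters TTAGGG, the unit of the telomere repeat, were in none of the 4 promoters on either strand, and were in 6.45% of subtelomeric and 9.11% of all autosomal promoters. TTAGGG in tandem (2 copies) was in 0 of the 1038 subtelomeric promoters and in 2 of the 33725 autosomal ones. CCAAT was in none of the 4, in 29.2% of subtelomeric and in 34.4% of all autosomal promoters. The GC content of the 4 was between 74.3% and 75.3%, beside a median of 66.3% over subtelomeric and 58.7% over all autosomal promoters. Promoters at other subtelomeric peaks differed from these 4. Those of NCAPG2 and ZNF418 held TTAGGG, and those of LARP4B, POLE, PXMP2, RPUSD1, CHTF18 and HRAS held CCAAT. Others, such as those of ECHS1 and AXIN1, held neither. GC content was 52% at ZNF418 and 82.7% at CHTF18.

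Subtelomeres were dense in peaks in both lists. The si-CHAF1A list had 88.5 peaks per Mb there and 32.1 over the rest of the autosomes, 2.76 times as many. The si-Ctrl list had 67.9 per Mb there and 25.3 over the rest, 2.69 times as many. Protein-coding genes were packed there to a like degree, at 16.5 per Mb against 6.46, or 2.55 times. Per protein-coding gene the si-CHAF1A list held 5.36 subtelomeric peaks against 4.96 over the rest, and the si-Ctrl list 4.11 against 3.91. Subtelomeric peaks covered 44.5 kb per Mb in the si-CHAF1A list and 32.1 kb per Mb in the si-Ctrl list, against 14.1 kb (si-CHAF1A) and 10.6 kb (si-Ctrl) per Mb over the rest. Unknown bases were not subtracted from any length, at the ends or elsewhere.

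The dense zone did not stop at 1 Mb. From 1 to 2 Mb the si-CHAF1A list had 89.7 peaks per Mb and the si-Ctrl list 68.8, about the levels of the last megabase. Both fell off further in, with 68.9 si-CHAF1A and 50.8 si-Ctrl peaks per Mb at 2 to 3 Mb and 37.6 si-CHAF1A and 29.4 si-Ctrl peaks per Mb at 9 to 10 Mb. Gene density took the same course, with 15.4, 10.3 and 8.56 protein-coding genes per Mb in those 3 bins. Within the last megabase the outermost 12 kb stood apart by strength: its 27 peaks of the si-CHAF1A list had a median fold enrichment of 18.7, and its 26 of the si-Ctrl list one of 20.2. Fold enrichment is the authors' ratio of reads piled up at a summit to those expected there. The expected number comes from the summit's surroundings or from the whole genome, whichever is higher. From 12 to 50 kb the medians were 3.48 in the si-CHAF1A list and 3.57 in the si-Ctrl list, close to those further in.

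**Figure D1:**
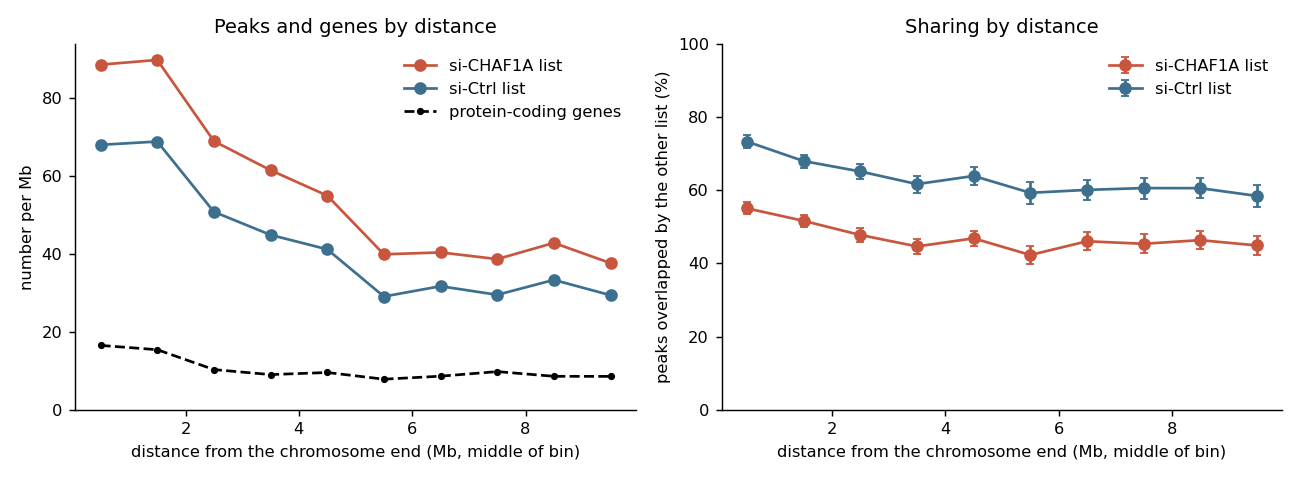
Left, peaks and protein-coding genes per Mb in 1 Mb bins of distance from the chromosome end, over 39 arms. Right, percent of peaks overlapped by a peak of the other list, with bars for exact binomial 95% intervals that cover counting error only; in the si-Ctrl list the first bin is at 73.3%, and the second at 68.0%.

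The si-CHAF1A list had more subtelomeric peaks than the si-Ctrl list, as it did elsewhere. The ratio was 1.30 (95% interval 1.24 to 1.37, counting error only) and 1.27 over all autosomes. The whole-genome background that MACS2 used, which grows with depth, was 8.49 reads in the si-CHAF1A list and 6.34 in the si-Ctrl list, so depth and siRNA cannot be told apart in raw counts. With the si-CHAF1A pileups thinned to the si-Ctrl background the ratio was 1.19 in subtelomeres and 1.14 over the autosomes. Each group is represented by a single list, so the spread between samples is unknown and nothing could be tested between groups.

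Among strong peaks the lists differed near the ends in another way than in the interior. The −log10 q of a peak is the authors' adjusted significance from the peak caller, higher for stronger peaks. At a −log10 q of at least 10 there were 1595 subtelomeric peaks in the si-CHAF1A list and 1285 in the si-Ctrl list, a ratio of 1.24 (1.15 to 1.34). Over the rest of the autosomes the same threshold left 35967 si-CHAF1A and 34818 si-Ctrl peaks, a ratio of 1.03 (1.02 to 1.05). The next megabase was at 1.25 (1.16 to 1.35), the stretch of 2 to 5 Mb at 1.16 (1.09 to 1.22), and all beyond 5 Mb at 1.02 (0.999 to 1.03). At a −log10 q of at least 20 the last megabase had 715 peaks in the si-CHAF1A list and 686 in the si-Ctrl list, a ratio of 1.04 (0.937 to 1.16), against 0.81 (0.792 to 0.827) over the rest. The subtelomeric intervals lay above those of the rest at both thresholds and overlapped those of the next megabase.

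The pattern did not need a fixed threshold. When the 10000 strongest autosomal peaks of each list were taken, 473 of the si-CHAF1A list (4.73%) and 374 of the si-Ctrl list (3.74%) were subtelomeric, a ratio of 1.26 (1.10 to 1.45). The ratio was 1.21 (1.03 to 1.42) in the next megabase, 1.06 (0.948 to 1.19) at 2 to 5 Mb and 0.977 (0.949 to 1.01) beyond. With the 35000 strongest the last megabase was at 1.20 (1.11 to 1.30), the next at 1.205 (1.11 to 1.30) and the zone beyond 5 Mb at 0.975 (0.960 to 0.991). With 74282 peaks from each list, the whole length of the si-Ctrl list, the contrast was smaller: the last megabase was at 1.07 (1.02 to 1.13), the next also at 1.07 (1.02 to 1.13), and the zone beyond 5 Mb at 0.989 (0.979 to 1.0004). By arm, 31 of 39 arms had more peaks at a −log10 q of at least 10 in the si-CHAF1A list, 4 had as many and 4 had fewer. The local background at the summits differed between zones and lists: its median was 18.1 reads in the si-CHAF1A list and 12.99 in the si-Ctrl list in subtelomeres, and 11.97 (si-CHAF1A) and 9.54 (si-Ctrl) over the rest. It stood above the whole-genome value at 92.1% of subtelomeric peaks in each list, and at 75.6% of si-CHAF1A and 81.6% of si-Ctrl peaks elsewhere; its part in the ratio was not tested.

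**Figure D2:**
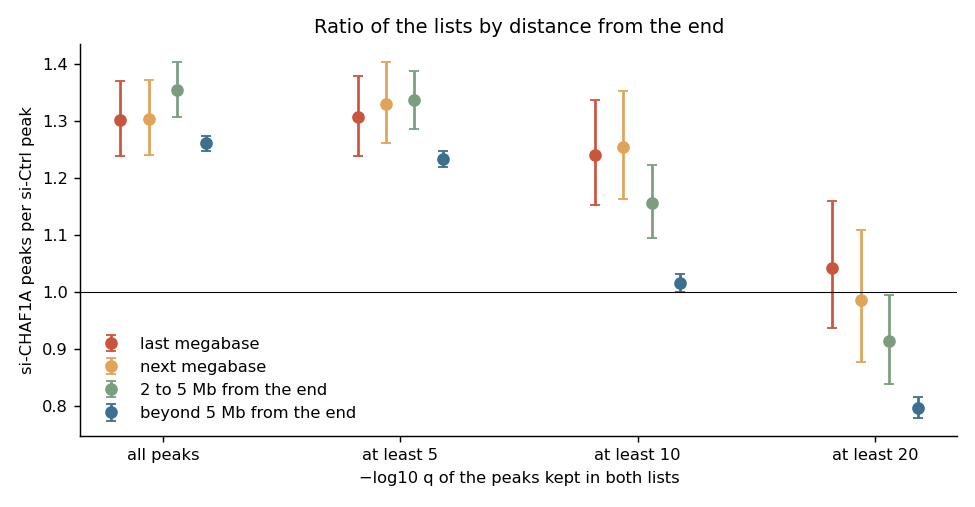
Number of si-CHAF1A peaks per si-Ctrl peak (vertical axis) by distance from the chromosome end (colours) among all peaks and among those with a −log10 q of at least 5, 10 and 20; bars are 95% intervals for counting error only. At 10 and above the last and the next megabase sit at 1.24 and 1.25, and the zone beyond 5 Mb at 1.02.

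Arms differed far more from each other than the lists did. The si-CHAF1A list had a median of 85 peaks per arm, from 5 to 176, and the si-Ctrl list one of 63, from 3 to 139. The arms with the most were 8q (176 si-CHAF1A and 129 si-Ctrl peaks), 16p (175 si-CHAF1A and 120 si-Ctrl) and 13q (167 si-CHAF1A and 134 si-Ctrl), while 20q, with 149 si-CHAF1A peaks, led the si-Ctrl list with 139. The arms with the fewest were 3p (5 si-CHAF1A and 3 si-Ctrl peaks), 11q (12 in each list) and 9p (15 in each list). Peak number followed the number of protein-coding genes only loosely, with a Spearman coefficient over the 39 arms of 0.634 in the si-CHAF1A list and 0.608 in the si-Ctrl list, given as a description of arms that share a library. The end of 13q held 16 protein-coding genes and 167 si-CHAF1A peaks, whereas the end of 19q, with its zinc finger cluster, held 41 genes and 85 peaks.

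In 35 arms of the si-CHAF1A list and 33 of the si-Ctrl list the last megabase was denser than the rest of its own chromosome. The exceptions in both lists were 3p, 8p, 9p and 11q. In the si-Ctrl list 14q, at 0.763 times its chromosome, and 17p, at 0.960 times, joined them. The largest excess was on 4p, at 6.44 times the rest of chromosome 4 in the si-CHAF1A list and 5.93 times in the si-Ctrl list. The end of 14q holds the immunoglobulin heavy chain locus and no gene of the protein-coding class, and it had 36 si-CHAF1A and 17 si-Ctrl peaks.

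The si-CHAF1A list had more peaks on 36 arms, the lists were equal on 9p and 11q, and the si-Ctrl list had 1 more on 6q (56 si-CHAF1A and 57 si-Ctrl peaks). After thinning it had more on 35 arms and fewer on 2, and with lists of equal length more on 24 and fewer on 14. Among the 35 arms with at least 20 peaks in each list the ratio was highest on 2q, with 109 si-CHAF1A and 63 si-Ctrl peaks (1.73, 1.26 to 2.40), and lowest on 6q (0.98, 0.667 to 1.45). The intervals of these extremes overlapped. Short arms together had 1338 si-CHAF1A and 1026 si-Ctrl peaks and long arms 2114 si-CHAF1A and 1624 si-Ctrl peaks, a ratio of 1.30 in each.

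**Figure D3:**
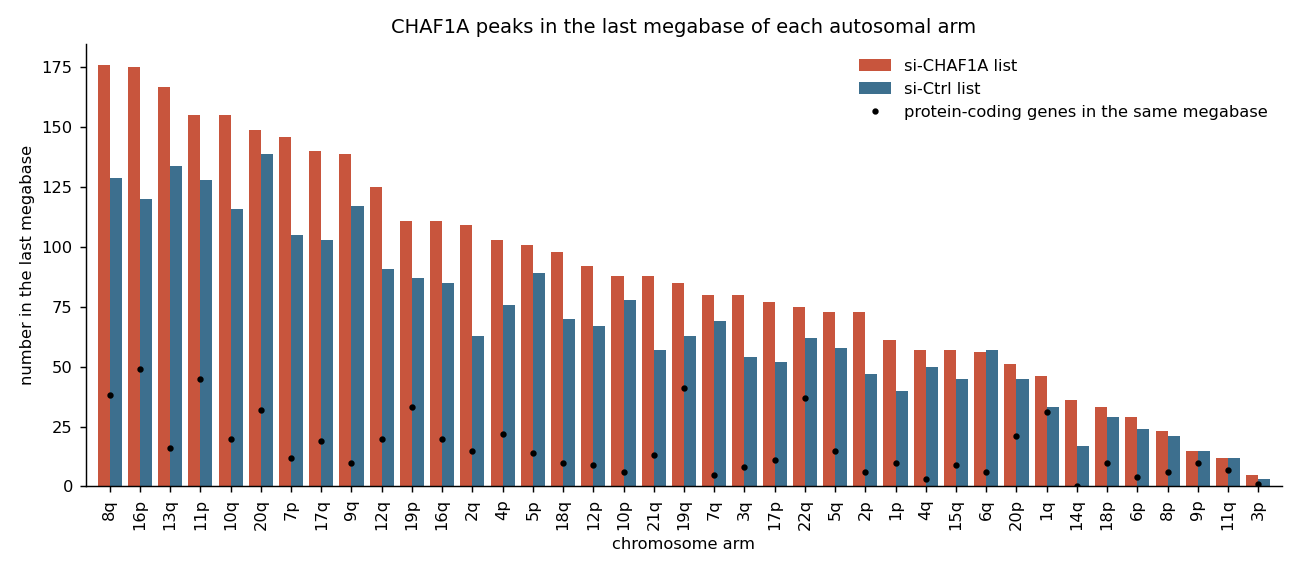
Number of peaks (bars) and of protein-coding genes (points) in the last megabase of each of 39 arms, ordered by the si-CHAF1A list, with the si-CHAF1A bar left of the si-Ctrl bar. The arms 8q and 16p have 176 and 175 si-CHAF1A peaks, and 3p has 5.

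At the very ends, 22 arms carried a peak with its summit within 12 kb of the end position, and they were the same 22 arms in both lists, 11 short and 11 long. The 12 kb window was chosen after the peaks had been seen. It was counted from the end position, unknown bases included. An arm whose run of unknown bases passes 12 kb could hold no peak there, in either list. The outer edge of the peak was a median of 10004 bases from the end position in the si-CHAF1A list and 10003 in the si-Ctrl list, and over all 22 arms it ranged from 9977 to 10824 bases in the si-CHAF1A list and from 9983 to 10932 in the si-Ctrl list. The strongest peak of each arm had a fold enrichment above 10 in 18 of the 22 arms in each list, whereas 1.3% of autosomal si-CHAF1A peaks and 2.7% of si-Ctrl peaks passed that level. Away from the ends, 65 of 3425 subtelomeric si-CHAF1A peaks and 70 of 2624 si-Ctrl peaks passed it. The terminal peak was the strongest of its arm's last megabase, by q, in 10 arms of the si-CHAF1A list and 13 of the si-Ctrl list.

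The strongest lay on 22q at chr22:50807876-50808468, with a fold of 44.6 in the si-CHAF1A list and 48.7 in the si-Ctrl list. On 12q the fold was 37.7 (si-CHAF1A) and 37.6 (si-Ctrl), and on 10p 37.0 (si-CHAF1A) and 37.2 (si-Ctrl). By the si-CHAF1A list the weakest were on 4q, with 4.32 in the si-CHAF1A list and 5.72 in the si-Ctrl list, on 16p, with 4.85 (si-CHAF1A) and 6.15 (si-Ctrl), and on 2p, with 5.90 (si-CHAF1A) and 9.94 (si-Ctrl). In the si-Ctrl list 9p, with 8.63 (si-CHAF1A) and 9.14 (si-Ctrl), was weaker than 2p. On 3p the terminal peak, with 23.99 in the si-CHAF1A list and 25.04 in the si-Ctrl list, stood among 5 si-CHAF1A and 3 si-Ctrl peaks in the whole megabase. The si-CHAF1A peak overlapped a si-Ctrl peak in 21 arms, all but 16p. There the strongest si-Ctrl peak lay at another site, chr16:10932-11109. It overlapped a weaker si-CHAF1A peak, chr16:10871-11109, with a fold of 3.37. The 17 arms with no terminal peak in either list included 8q, 20q and 11p, which were among the densest further in. How far unknown bases reach on these 17 arms was not analysed, so a missing terminal peak cannot be read as absent binding. The outermost peak of the 17 lay from 60.8 kb (19p) to 169.0 kb (14q) from the end in the si-CHAF1A list and from 60.6 kb (20p) to 246.5 kb (11q) in the si-Ctrl list. On 18q the outermost peak was 110.2 kb in, and its fold was 32.7 in the si-CHAF1A list and 34.6 in the si-Ctrl list.

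Fold enrichment at the ends was lower in the si-CHAF1A list in 19 of the 22 arms and higher on 1p, 4p and 12q, with medians of 20.4 in the si-CHAF1A list and 22.5 in the si-Ctrl list. At shared sites elsewhere the si-CHAF1A fold was also the lower one more often than not. Over the 24 si-Ctrl peaks of the last 12 kb that were shared, the si-CHAF1A fold was lower at 79.2% (57.8 to 92.9) with a median quotient of 0.913. Over the other shared subtelomeric sites it was lower at 68.3% (66.2 to 70.4) with a median quotient of 0.920, and over the rest of the autosomes at 72.4% (71.95 to 72.79) with 0.889. Among sites with a si-Ctrl fold above 10 it was lower at 79.7% (68.3 to 88.4) of 69 subtelomeric ones past the last 12 kb and at 86.2% (84.6 to 87.7) of 1884 in the rest. The interval of the terminal peaks held both of these values. Choosing sites by a si-Ctrl fold above 10 favours a lower value in the other list. Whether the terminal peaks lie on telomere repeats was not analysed here.

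**Figure D4:**
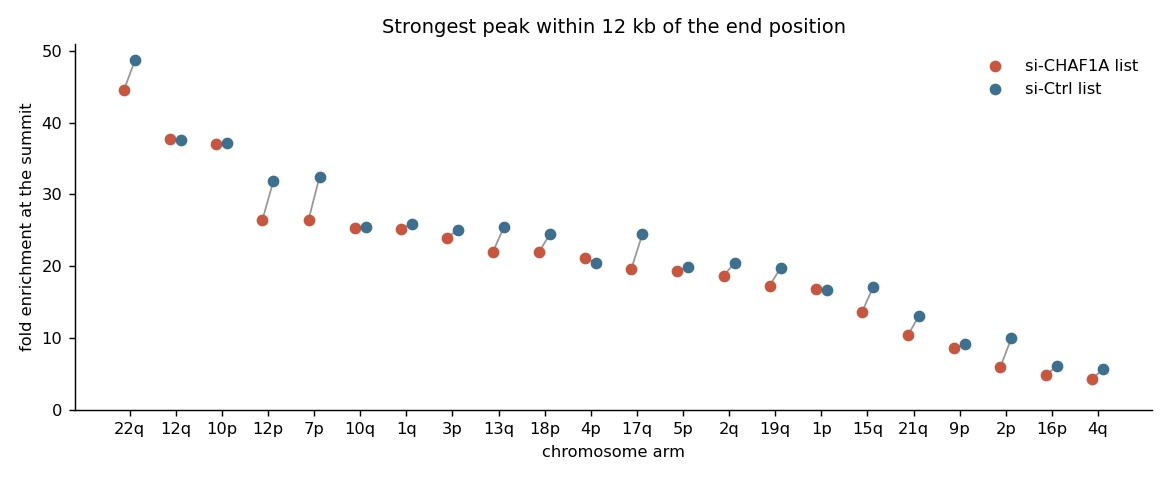
Fold enrichment at the summit of the strongest peak within 12 kb of the end position, for the 22 arms with such a peak, ordered by the si-CHAF1A list; the si-CHAF1A point is left of the si-Ctrl point, and a line joins the pair. The arm 22q is highest at 44.6 (si-CHAF1A) and 48.7 (si-Ctrl), and si-CHAF1A points are lower in 19 arms.

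Subtelomeric sites were shared between the lists more often than other autosomal sites. Of the subtelomeric peaks, 1901 in the si-CHAF1A list (55.1%, 53.4 to 56.7) met a si-Ctrl peak in at least 1 bp, and 1943 in the si-Ctrl list (73.3%, 71.6 to 74.997) did so with a si-CHAF1A peak. The share over all autosomal peaks was 47.8% in the si-CHAF1A list and 61.8% in the si-Ctrl list. In the rest of the autosomes it was 47.5% (si-CHAF1A) and 61.3% (si-Ctrl), and in the next megabase 51.6% (si-CHAF1A) and 68.0% (si-Ctrl). The arm's share was above the autosomal one in 31 arms of the si-CHAF1A list and 34 of the si-Ctrl list. In the si-CHAF1A list it was lowest on 14q (22.2%) and 2p (38.4%) and highest on 8p (73.9%), and in the si-Ctrl list lowest on 14q (47.1%) and, of arms with at least 20 peaks, highest on 4q (86.0%).

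The excess lay away from protein-coding gene ends. There, 52.6% (50.7 to 54.4) of subtelomeric si-CHAF1A peaks were shared, against 43.0% over the rest, and 71.5% (69.6 to 73.4) of si-Ctrl peaks, against 56.9%. At gene ends subtelomeric peaks were shared less often in the si-CHAF1A list, at 69.8% (65.6 to 73.8) against 76.0%, and at 82.6% (78.7 to 86.0) against 84.1% in the si-Ctrl list. The excess was seen in weak and strong peaks alike. Each list was cut by q into 5 classes of equal size. In the weakest class of the si-Ctrl list 43.9% of subtelomeric peaks were shared against 32.6% of others, in the middle class 75.3% against 59.7%, and in the strongest 96.8% against 93.5%. In the si-CHAF1A list the same 3 classes gave 21.7% in subtelomeres against 15.8% elsewhere, 44.0% against 38.3%, and 96.3% against 95.1%. The share was higher in subtelomeres in all 5 classes of both lists, with intervals that overlapped in the second, the fourth and the strongest of the si-CHAF1A list. Subtelomeric peaks were also wider and more closely packed, with medians of 386 bp in the si-CHAF1A list and 359 bp in the si-Ctrl list, against 339 bp (si-CHAF1A) and 326 bp (si-Ctrl) elsewhere, and the part of width and packing in the sharing was not tested.

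**Figure D5:**
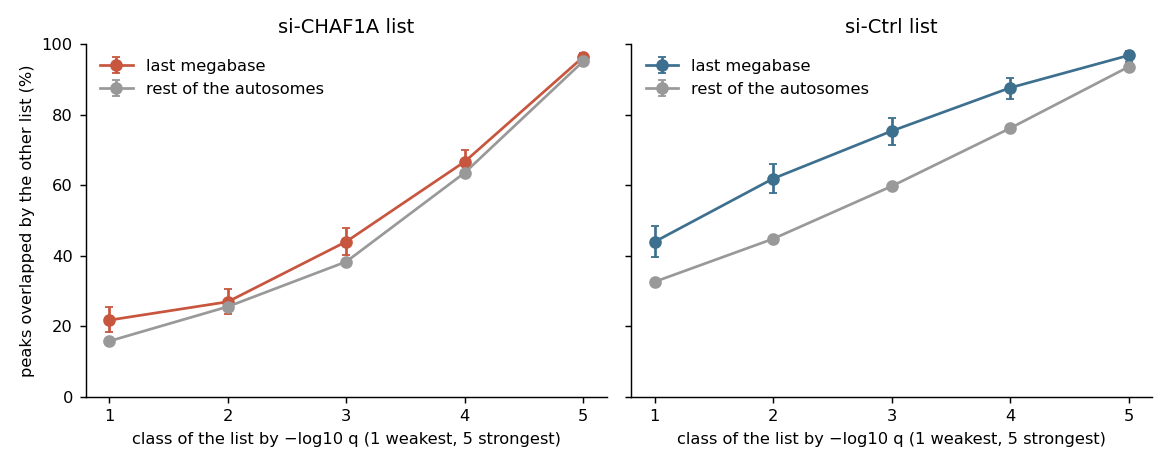
Percent of peaks overlapped by the other list in each of 5 classes of a list by −log10 q, for the last megabase (coloured) and the rest of the autosomes (grey), with 95% intervals for counting error only. In the middle class of the si-Ctrl list the last megabase is at 75.3% and the rest at 59.7%.

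Subtelomeric peaks sat inside genes more often than others. A summit within 1 kb of either end of a protein-coding gene was found for 503 si-CHAF1A peaks (14.6%, 13.4 to 15.8) and 437 si-Ctrl peaks (16.5%, 15.10 to 17.96). Over all autosomes the shares were 13.8% (si-CHAF1A) and 16.3% (si-Ctrl), so the subtelomeric ones were near the background when all strengths were counted. In the strongest of the 5 classes of the si-CHAF1A list, however, 27.9% (24.9 to 31.0) of subtelomeric peaks lay at a gene end, against 34.8% (34.1 to 35.5) of others, and in the weakest 8.08% (5.95 to 10.7) did, against 5.62% (5.29 to 5.96). The si-Ctrl list had 34.7% (30.7 to 38.96) in subtelomeres against 35.6% elsewhere in its strongest class, and 7.16% against 7.13% in its weakest. A summit within 1 kb of the 5′ end alone was less frequent in subtelomeres, at 8.98% (8.05 to 9.98) of si-CHAF1A and 11.3% (10.1 to 12.6) of si-Ctrl peaks, against 10.9% (si-CHAF1A) and 13.3% (si-Ctrl) over the rest. A further 51.3% of si-CHAF1A and 48.8% of si-Ctrl subtelomeric peaks lay elsewhere within a protein-coding gene, against 43.2% (si-CHAF1A) and 41.1% (si-Ctrl) over the rest. Those outside any annotated gene made up 19.7% of si-CHAF1A and 20.9% of si-Ctrl peaks, against 30.3% (si-CHAF1A) and 29.8% (si-Ctrl). Protein-coding genes were also denser there, at 16.5 per Mb against 6.46. The part of each zone that lies inside genes was not measured, so these shares do not show a preference of peaks for genes. By arm the gene-end share was highest on 11q in the si-CHAF1A list (41.7% of 12 peaks), then 19q (41.2%) and 20p (37.3%), and it was highest on 19q in the si-Ctrl list (46.0%).

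Of the 644 protein-coding genes lying whole in the last megabase, 422 (65.5%, 61.7 to 69.2) had a peak at an end in the si-CHAF1A list and 402 (62.4%, 58.6 to 66.2) in the si-Ctrl list, beside 62.8% (si-CHAF1A) and 60.2% (si-Ctrl) of all autosomal protein-coding genes. Both lists had one at 361 genes (56.1%, against 54.7% over all autosomes), the si-CHAF1A list only at 61 (9.47%, against 8.07%) and the si-Ctrl list only at 41 (6.37%, against 5.48%). The intervals of these shares held the autosomal values. A gene counts for a list by a summit within 1 kb of its end, so the other list can still overlap the peak: it did so at 3 of the 61 and at 3 of the 41. Nor need a gene with a peak in both lists have them at the same site. At ZNF16 and ZNF721 the strongest end peak of each list met no peak of the other. Other gene classes differed more: 405 of 1026 genes that are not protein-coding (39.5%, 36.5 to 42.5) had a si-CHAF1A peak at an end and 329 (32.1%, 29.22 to 35.02) a si-Ctrl peak, against 21.02% (si-CHAF1A) and 18.6% (si-Ctrl) in the rest of the autosomes. Long noncoding RNA genes were at 47.3% (42.9 to 51.9) in the si-CHAF1A list and 37.8% (33.4 to 42.2) in the si-Ctrl list, against 27.9% (si-CHAF1A) and 25.7% (si-Ctrl). Peaks themselves were 2.76 (si-CHAF1A) and 2.69 (si-Ctrl) times as dense there as over the rest. Any point in the last megabase is thus more often near a summit, and the part of density in these shares was not tested.

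Shared peaks with the highest q included several at repeated sequence. On 1p, 3 of the 8 strongest lay at nuclear copies of mitochondrial DNA, such as chr1:633751-634161 at MTCO2P12 and MTATP6P1, with folds of 7.70 in the si-CHAF1A list and 7.79 in the si-Ctrl list. Reads of mitochondrial DNA can be placed there. The peak inside DUX4 on 4q, the homeobox gene of the D4Z4 repeat, lay at chr4:190179089-190180010 with folds of 17.6 (si-CHAF1A) and 18.5 (si-Ctrl). A peak at ROCK1P1 on 18p, a pseudogene of the kinase ROCK1, spanned chr18:107827-109406 with folds of 14.04 (si-CHAF1A) and 14.17 (si-Ctrl). UPF3A on 13q, a regulator of nonsense-mediated mRNA decay, had 18.7 in both lists at chr13:114280990-114282596, the promoter printed above. TMEM18 on 2p, a nuclear membrane protein gene, had 11.8 in the si-CHAF1A list and 12.4 in the si-Ctrl list.

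Further shared gene-end peaks, listed after their values had been seen, belonged to genes of many functions. ECHS1 on 10q, a mitochondrial enzyme of fatty acid oxidation, had folds of 12.97 in the si-CHAF1A list and 15.9 in the si-Ctrl list. NCAPG2 on 7q, a condensin II subunit, had 13.03 (si-CHAF1A) and 14.85 (si-Ctrl). SPATC1L on 21q had 15.99 (si-CHAF1A) and 21.65 (si-Ctrl). Its summit lies in a tandem repeat, and the effect of the repeat on these values was not analysed. NPRL3 on 16p, a GATOR1 subunit that inhibits mTORC1 and whose introns hold the alpha-globin enhancers, had 12.2 (si-CHAF1A) and 13.2 (si-Ctrl). The si-CHAF1A value was the lower at these 4, but not at every peak of the kind. The peak at CHMP1A and SPATA33 on 16q had 9.84 (si-CHAF1A) and 8.63 (si-Ctrl), and that at PGBD2 on 1q had 10.8 (si-CHAF1A) and 8.76 (si-Ctrl).

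Peaks of the si-CHAF1A list with no overlapping si-Ctrl peak numbered 1551, and 280 of them had a −log10 q of at least 10. The strongest stood far above the others: chr17:488989-489205 on 17p, outside genes, had a fold of 40.6 and a −log10 q of 1373, and the nearest si-Ctrl peak lay 15152 bp away. Next came chr7:608614-608817 in PRKAR1B, a regulatory subunit of protein kinase A, with a fold of 5.78 (pileup 104 over a background of 17.2 reads), and chr6:170219127-170219699 on 6q, outside genes, with 7.17. ZCCHC3 on 20p, which codes for a nucleic acid-binding zinc finger protein of innate immune sensing, had 5.21 at its end. The others of the 8 were in WDR24 (3.04), a GATOR2 subunit, in BSG (3.03), which codes for basigin, and outside genes at chr20:641910-642152 (5.22) and chr12:132414663-132415141 (3.27). A si-Ctrl peak lay 617 bp from the ZCCHC3 peak, 505 bp from that of chromosome 12 and 1320 bp from that in BSG. The rest of the 8 had none nearer than 4981 bp. The MCRIP2 peak on 16p, whose promoter is printed above, had a fold of 2.38.

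Peaks of the si-Ctrl list with no overlapping si-CHAF1A peak numbered 707, and 126 of them had a −log10 q of at least 10. The first by q was at the mitochondrial copy MTND1P23 on 1p (chr1:629128-629417, fold 2.92), 233 bp from a si-CHAF1A peak. The second, chr19:835409-835581, outside genes, had a fold of 12.7 from a pileup of 199 over 14.7 reads. UCKL1, a uridine-cytidine kinase-like gene, shares with ZNF512B on 20q the third, chr20:63956437-63956619, with a fold of 5.63, and its promoter is the one with the 31-base repeat. MRPL28, a protein of the mitochondrial ribosome, and PGAP6 on 16p share chr16:370271-370666, with a fold of 6.02. VPS53 on 17p, a subunit of a vesicle-tethering complex, had 7.23, and TCEA2 on 20q, a transcription elongation factor, had 3.94. The remaining 2 lay outside genes at chr20:64120496-64120662 (5.25) and chr6:422724-423021 (6.57). A si-CHAF1A peak lay 712 bp from the UCKL1 peak, 799 bp from chr20:64120496-64120662 and 1171 bp from the TCEA2 peak. The others past the first had none nearer than 2730 bp. A missing interval says only that the other list has no call there. Of the peaks at a −log10 q of at least 10, 17.6% of the subtelomeric ones were unshared in the si-CHAF1A list and 9.81% in the si-Ctrl list, against 20.5% (si-CHAF1A) and 18.8% (si-Ctrl) over the rest.

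Families of duplicated end sequence, chosen by symbol, held 159 genes within 1 Mb on 35 arms. Both lists had a peak at an end of 57, the si-CHAF1A list only of 17, the si-Ctrl list only of 2 (DDX11L5 and RPL23AP82), and neither of 83. That makes 74 genes with a si-CHAF1A peak and 59 with a si-Ctrl peak, beside the 39.5% (si-CHAF1A) and 32.1% (si-Ctrl) of non-coding subtelomeric genes given above. The 159 are not all non-coding: 15 are protein-coding, of which 3 had a si-CHAF1A peak and 3 a si-Ctrl peak. The symbol LINC names any long intergenic noncoding gene, duplicated or not, and makes up 59 of the 159. The families were unlike each other. Of 24 DUX4 genes and pseudogenes, 22 had a si-CHAF1A peak and 20 a si-Ctrl peak, with 13 of 14 in each list on 10q, and 9 in the si-CHAF1A and 7 in the si-Ctrl list of the 10 on 4q. DUX4 itself counted in neither list, because no summit lay within 1 kb of its ends, though it holds the strong shared peak given above. WASH genes, which code for or derive from an actin nucleation factor, had a peak at 6 of 7 in each list. By contrast 1 of 17 OR4F olfactory receptors had one in the si-CHAF1A list and 0 in the si-Ctrl list, and FAM138 genes had 0 of 5 in each. RPL23AP pseudogenes had 1 of 16 in the si-CHAF1A list and 2 in the si-Ctrl list. The 17 with a si-CHAF1A peak only were DUX4L1 and DUX4L5, FAM157C and FAM157D, IL9RP3, FRG2FP, TUBB8P8, OR4F4, MIR1302-9 with its host gene, LINC01875, LINC01238, LINC01880, LINC01167, LINC01001, LINC02091 and LINC01970. The peaks of IL9RP3 and LINC01880 overlapped a si-Ctrl peak with its summit further off. Near-identical copies make each of these calls uncertain.

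Zinc finger genes were the other large group, with 69 genes of which 58 had a si-CHAF1A peak and 53 a si-Ctrl peak. Of its 57 protein-coding members 48 had a si-CHAF1A peak and 44 a si-Ctrl peak, beside 65.5% (si-CHAF1A) and 62.4% (si-Ctrl) of all subtelomeric protein-coding genes. Their median fold at those peaks was 5.30 in the si-CHAF1A list and 6.52 in the si-Ctrl list. The si-CHAF1A list only had ZNF876P, ZNF732, ZNF605, ZSCAN4, ZNF418 and ZNF324B, with folds from 2.60 at ZSCAN4 to 4.21 at ZNF418, and the si-Ctrl list only had ZSCAN18 (3.398). Of 64 olfactory receptor genes, 10 had a si-CHAF1A peak and 8 a si-Ctrl peak. The 37 protein-coding ones had 5 in each list, beside those same 65.5% (si-CHAF1A) and 62.4% (si-Ctrl), and the others are pseudogenes. OR2AS2P, OR2T29, OR2Y1 and OR4F4 had it in the si-CHAF1A list only, and OR2T1 and OR2T5 in the si-Ctrl list only. In the alpha-globin region of 16p, 11 of 12 genes had a si-CHAF1A peak and 9 a si-Ctrl peak, beside 75.5% (si-CHAF1A) and 69.4% (si-Ctrl) of the 49 protein-coding genes of that arm's last megabase. HBA2 (1.89) and RHBDF1 (3.22) had a summit within 1 kb of an end in the si-CHAF1A list only, though a si-Ctrl peak overlaps that of RHBDF1, and HBM, a globin gene, was in neither; HBA1 and HBA2 are near-identical copies.

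Mitochondrial genes numbered 7, with 4 in the si-CHAF1A list and 6 in the si-Ctrl list. Of the 5 that are protein-coding 3 had a si-CHAF1A peak and 5 a si-Ctrl peak, beside 65.5% (si-CHAF1A) and 62.4% (si-Ctrl) of all subtelomeric ones. MRPL28 and POLRMT, the mitochondrial RNA polymerase (fold 3.50), had a si-Ctrl peak only. Among 5 neutrophil granule genes of 19p, 3 had a si-CHAF1A peak and 2 a si-Ctrl peak, numbers too small to set against those shares. CFD, complement factor D, had its summit near an end in the si-CHAF1A list only (2.43), but a si-Ctrl peak overlaps the same peak. Of 21 autosomal telomere maintenance genes, wherever they lay, 19 had a si-CHAF1A peak and 18 a si-Ctrl peak. Its 20 protein-coding members had 18 (si-CHAF1A) and 17 (si-Ctrl), beside 62.8% (si-CHAF1A) and 60.2% (si-Ctrl) of all autosomal protein-coding genes. POT1, the shelterin protein that binds the single-stranded repeat, had the highest fold, 13.9 in the si-CHAF1A list and 15.7 in the si-Ctrl list. TERF2 (3.85), a shelterin protein of the double-stranded repeat, and NAF1 (3.58), a telomerase assembly factor, were in the si-CHAF1A list only, and GAR1 was in neither. RTEL1, a helicase that unwinds telomere loops, is the only member in the last megabase, on 20q, and had a si-Ctrl peak only, with a fold of 2.16 and a −log10 q of 5.34.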

How the data were processed

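CHAF1A CUT&Tag was measured in si-CHAF1A and si-Ctrl RBE cells (2 samples each, 1 peak list per group). The submitters' processing notes name MACS2 2.1.2, deepTools 3.4.3, Bowtie2 2.2.5, fastp 0.20.1 and the build hg38. The sources used here do not give whether samples were pooled or a control library served. The authors deposited each fold enrichment as a linear ratio, with p and q as −log10 values. No −log10 p was under 5.00, which is a p of 1e-05. The deposited score was not used.

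Autosomal peaks were kept (4124 si-CHAF1A and 2899 si-Ctrl peaks left out). Pileup and background were solved from fold and p where −log10 p was under 290 (99.2% of si-CHAF1A and 99.1% of si-Ctrl peaks), on MACS2's formulas, and nearly all of those came out as whole pileups to within 0.02 reads. For thinning, si-CHAF1A pileups and backgrounds were drawn down to 0.747 of their depth (1 seed). Arm lengths are those of GRCh38, entered by hand, and no peak or gene passed them. Genes came from the RefSeq table of GRCh38.p14 (56080 autosomal genes), after leaving out 676 rows out of coordinate order, taken to belong to other sequences under a chromosome's name. Only 79.6% of protein-coding genes have a promoter entry, so the values for 5′ ends cover those.

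Intervals are exact binomial (Clopper-Pearson) at 95% and cover counting error only. The number of reads is unknown. No test between groups was made. Members, lists and rules were chosen with earlier results of these data known. The rule for named items took the 8 peaks of highest −log10 q that were shared, in the si-CHAF1A list only and in the si-Ctrl list only, the outermost peaks, the 3 arms with most and the 3 with fewest peaks, the extreme ratios, and list members with a peak in 1 list only. The peaks at gene ends beyond these, MCRIP2, the motif ACTACA, the ratios by threshold and the 12 kb window were added later. Functions were tested on simulated data. The work used scipy 1.17.1, pandas 2.3.3, numpy 2.4.6 and matplotlib 3.10.9 under Python 3.11.15.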

Additional observations from a re-analysis of the deposited data

How the results depend on the processing

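At a −log10 q of at least 5 the subtelomeric share of si-CHAF1A peaks was 3.80% (3.66% over all peaks), and 75.3% of si-Ctrl peaks were shared. At a −log10 q of at least 10 there were 1595 si-CHAF1A and 1285 si-Ctrl peaks, the subtelomeric share of si-CHAF1A peaks was 4.25%, 63.8% of si-CHAF1A and 80.2% of si-Ctrl peaks were shared (both lists so filtered), and 21.3% (si-CHAF1A) and 23.8% (si-Ctrl) lay at gene ends. With equal numbers of autosomal peaks the si-CHAF1A share was 3.82%, sharing 62.2% (si-CHAF1A) and 68.6% (si-Ctrl), and the si-CHAF1A part at gene ends 15.9%. Thinning gave 58.2% (si-CHAF1A) and 71.2% (si-Ctrl) shared. Without the outermost 100 kb the subtelomeric share was 3.43% (si-CHAF1A) and 3.33% (si-Ctrl), and without 8q 3.47% (si-CHAF1A) and 3.39% (si-Ctrl). A zone of 500 kb held 1.66% of si-CHAF1A and 1.63% of si-Ctrl peaks, with 57.2% (si-CHAF1A) and 75.6% (si-Ctrl) shared. One of 2 Mb held 7.36% (si-CHAF1A) and 7.18% (si-Ctrl), with 53.3% (si-CHAF1A) and 70.6% (si-Ctrl) shared. A 50% reciprocal overlap left 38.5% (si-CHAF1A) and 50.1% (si-Ctrl) shared. A 3 kb window put 27.5% of si-CHAF1A and 28.3% of si-Ctrl peaks at gene ends, and the 5′ end alone 8.98% (si-CHAF1A) and 11.3% (si-Ctrl), where the rest of the autosomes had 10.9% (si-CHAF1A) and 13.3% (si-Ctrl). The other 61 values, those without the mitochondrial copies of 1p among them (an alternative chosen after seeing the data), stayed within the interval of the reported share or within 1.5 times the reported count. The order of the lists turned in the number of genes with a peak at an end: with equal numbers of peaks it was 396 (si-CHAF1A) and 402 (si-Ctrl), against 422 (si-CHAF1A) and 402 (si-Ctrl) over all peaks. For most alternatives the shares over the rest of the autosomes were not recomputed. A smaller or larger zone holds fewer or more of the same peaks by definition. Likewise, a wider window can only raise the gene-end share, and a stricter overlap rule can only lower the shared part. The cause of the other shifts was not tested.

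No paired analysis was possible because each group has 1 list, which does not keep samples 1 and 2 apart; for the same reason no sample was left out. Depth, siRNA and sample cannot be told apart. Unknown bases, repeats and mappability were not analysed here, and copies of duplicated sequence cannot be separated.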
